A study of Mus musculus with 18 samples.

Results

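The small leucine-rich proteoglycans (SLRPs) are secreted proteins of connective tissue. The 10 genes described here, Dcn, Bgn, Aspn, Fmod, Lum, Prelp, Kera, Omd, Epyc and Ogn, were chosen by gene symbol, and all 10 had a row in each of the 3 deposited count tables, which hold 20200 symbols in all and 15853 in common. Their core proteins are built from leucine-rich repeats and most bind collagen fibrils, where they limit lateral growth of the fibril and hold growth factors such as TGF-beta. Decorin (Dcn), biglycan (Bgn) and asporin (Aspn) form a first class, of which decorin and biglycan carry chondroitin or dermatan sulphate chains. Fibromodulin (Fmod), lumican (Lum), prolargin (Prelp), keratocan (Kera) and osteomodulin (Omd) form a second class, in which keratan sulphate and sulphated tyrosines are common. Epiphycan (Epyc) and osteoglycin (Ogn) form another class. In the skeleton biglycan and decorin are known from bone matrix, and fibromodulin, prolargin and epiphycan from cartilage.

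RNA sequencing libraries of 6 mouse cell populations were compared, with 3 libraries each. The mice and the ESC lines carry the Col2.3GFP transgene, in which a fragment of the Col1a1 promoter drives GFP in maturing osteoblasts. Bone GFP+ (hi) and bone GFP- cells were sorted directly from long bone, and bone chip GFP+ (hi) and GFP- cells from bone chips cultured under osteogenic differentiation. ESC-OB GFP+ cells were sorted from osteogenic differentiation of mouse embryonic stem cells (ESC) and set against ESC. The ESC carry the same treatment label, osteogenic differentiation, but their titles and cell type label name stem cells, so they are called ESC here and whether they had been exposed to differentiation conditions is not settled by the labels. Age, sex and number of the mice and the number of ESC lines sampled are not given in the sources used here, nor is it said whether replicates were separate animals or cultures, so p-values measure only the spread between these libraries. The GFP- cells are labelled as a heterogeneous population, and in such bulk samples fewer cells of a type cannot be told apart from less RNA per cell.

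Library totals ran from 4920977 to 43874837 counts. Levels are given as CPM, the count scaled to the library total and the TMM factor within a source, with the SD over 3 libraries. The labelled cell types were checked against marker lists. The osteoblast list (Col1a1, Ibsp, Bglap, Alpl, Sp7, Runx2) summed to 571425 to 618794 CPM in bone GFP+ (hi) and 6612 to 13561 CPM in bone GFP-, and to 208912 to 249355 against 27151 to 31924 CPM in bone chips. Most of the GFP+ (hi) sums was Col1a1 (508500 to 547823 CPM in bone, 141383 to 174872 CPM in bone chips). Its promoter drives the GFP of the sort, so these sums are not an independent check. All 6 genes of the list were called higher in GFP+ (hi) cells of both sources. In ESC-OB GFP+ the osteoblast list summed to only 2995 to 8778 CPM, mostly Col1a1 (2973 to 7299 CPM), against 247 to 414 CPM in ESC. Of its 4 genes tested there, 3 were higher in ESC-OB GFP+ and Alpl was lower (-3.09 ± 0.53). Among those 3, Ibsp was very uneven between the ESC-OB GFP+ libraries (541 ± 736 CPM). Bglap and Sp7 did not pass the filter on low counts there. Epithelial markers summed to 1568 to 3011 CPM in ESC-OB GFP+. Bone GFP- cells carried the chondrocyte list (Col2a1, Acan, Sox9, Matn1, Matn3, Col9a1, Col10a1) at 94708 to 193587 CPM, with blood markers at 4.80 to 50.0 CPM and endothelial markers at 2.63 to 3.74 CPM. All 5 pluripotency markers (Pou5f1, Nanog, Sox2, Zfp42 and Esrrb) were higher in bone GFP+ (hi), where they summed to 12.4 to 16.4 CPM against 0.114 to 0.220 CPM in bone GFP- and 3300 to 4250 CPM in ESC. The Y-linked gene Ddx3y stood at 44.3 to 101 CPM in bone GFP- libraries and at 35.2 CPM in bone GFP+ (hi) replicate 2, but at 0.192 and 0.241 CPM in replicates 1 and 3, where Xist was 23.7 and 16.7 CPM. Results in bone are therefore also given without those 2 libraries. In bone chips Ddx3y was at most 0.0829 CPM, and Xist was 498 to 553 CPM in GFP- and 244 to 307 CPM in GFP+ (hi) libraries. Xist was at most 1.17 CPM in bone GFP-, so these transcripts differed between the sources as well.

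Of the 10 genes, 9 lie in 3 tandem clusters (GENCODE vM1 on NCBI Build 37, mm9). Dcn (chr10:96942245-96980777), Lum, Kera and Epyc (chr10:97106702-97145088) follow each other within 203 kb on the plus strand of chromosome 10. Aspn, Omd and Ogn lie within 120 kb of chromosome 13, next to the related gene Ecm2 and inside the Cenpp gene of the other strand, without exon overlap. Prelp and Fmod lie on opposite strands of chromosome 1, in a 151 kb stretch that also holds Optc. Bgn stands alone on the X chromosome (chrX:70728941-70741272). Prelp shares exon sequence with Gm15851, and Epyc with Gm10754, both on the opposite strand. The strand setting of the counting is not given in the sources used here, so reads of these partners cannot be told apart.

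RefSeq gave promoter windows (GRCm38.p6) for 8 of the 10 genes, and the 250 bases before the transcript start of 5 of them are shown. Bgn, Ogn and Aspn are shown because their windows held matches, and Kera and Epyc because they are neighbours that moved in opposite directions in bone. Capitals mark matches on either strand to the GC box GGGCGG, the TATA box TATAAA and the Runx core ACCACA. All 5 windows are on the plus strand, at chrX:73483351-73483600 for Bgn, chr13:49607765-49608014 for Ogn, chr13:49544193-49544442 for Aspn, chr10:97606955-97607204 for Kera and chr10:97643818-97644067 for the first of 2 Epyc windows.
Bgn: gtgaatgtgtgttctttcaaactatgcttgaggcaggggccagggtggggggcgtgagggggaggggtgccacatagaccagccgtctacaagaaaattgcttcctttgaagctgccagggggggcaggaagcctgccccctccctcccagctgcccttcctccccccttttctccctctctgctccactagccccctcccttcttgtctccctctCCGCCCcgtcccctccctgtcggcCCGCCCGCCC
Ogn: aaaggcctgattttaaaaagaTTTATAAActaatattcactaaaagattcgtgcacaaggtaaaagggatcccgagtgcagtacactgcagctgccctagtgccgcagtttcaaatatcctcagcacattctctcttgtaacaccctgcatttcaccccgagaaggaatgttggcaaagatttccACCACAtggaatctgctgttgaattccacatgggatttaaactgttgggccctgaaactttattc
Aspn: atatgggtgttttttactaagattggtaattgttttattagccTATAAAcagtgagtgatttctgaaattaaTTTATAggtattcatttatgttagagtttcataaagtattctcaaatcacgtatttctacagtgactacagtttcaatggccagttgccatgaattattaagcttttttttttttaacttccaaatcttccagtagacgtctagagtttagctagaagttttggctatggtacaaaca
Kera: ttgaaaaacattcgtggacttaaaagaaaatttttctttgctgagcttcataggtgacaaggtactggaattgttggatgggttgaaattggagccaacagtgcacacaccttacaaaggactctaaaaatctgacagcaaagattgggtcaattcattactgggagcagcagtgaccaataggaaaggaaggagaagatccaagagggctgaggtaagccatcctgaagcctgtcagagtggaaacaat
Epyc: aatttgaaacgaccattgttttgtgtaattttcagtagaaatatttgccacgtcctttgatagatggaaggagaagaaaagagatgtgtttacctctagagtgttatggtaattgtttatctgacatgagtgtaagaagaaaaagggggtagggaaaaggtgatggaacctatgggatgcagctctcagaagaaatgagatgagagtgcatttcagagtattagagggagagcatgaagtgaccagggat
Bgn held 3 GC boxes, at -34, -10 and -6 from the start, of which the last 2 overlap, and 64.4% of its bases were G or C, against a median of 52.4% over all 32851 windows. Ogn held 2 overlapping matches to TATAAA, on opposite strands, at -229 and -227 and a match to the Runx core at -65. Aspn, at 30.0% G or C, held matches to TATAAA at -207 and -178. These TATAAA matches stood far from the start, and whether any match acts was not tested. No match stood in the windows of Fmod, Prelp, Omd, Kera and Epyc. Neither TAATTA, a homeobox core, nor TGANTCA, the AP-1 site, was found in any of the 8 genes. These letters are common: GC boxes stood in 32.7%, TATA boxes in 12.4%, AP-1 sites in 6.75% and homeobox cores in 4.84% of all windows, and Runx cores in 4614 of the 32851.

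Fresh long bone was compared first, to ask which SLRP genes mark the GFP+ (hi) osteoblasts. The family split: Dcn, Lum and Kera were higher in GFP+ (hi) than in GFP- cells, Prelp, Epyc, Aspn, Fmod, Ogn and Omd were lower, and Bgn was not called. Thus 9 of 10 genes passed an adjusted p of 0.05 by edgeR's quasi-likelihood test, against 41.6% of the 12559 genes tested (19.5% higher, 22.1% lower). Over the 10 genes the log2 fold change had a median of -1.56, against 0.00 over all genes tested. The libraries of both groups lay apart for the same 9 genes, as for 55.9% of all genes tested. Without GFP+ (hi) replicates 1 and 3, each of the 9 genes kept its call and direction, with the 1 remaining library assumed to vary like the GFP- libraries.

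Of the first class, Dcn, which encodes the decorin that coats collagen fibrils, was at 564, 757 and 776 CPM in GFP- libraries and at 3834, 4026 and 3882 CPM in GFP+ (hi) libraries. Every GFP+ (hi) library stood far above every GFP- library, and the log2 fold change was 2.49 ± 0.19 (SE, adjusted p = 8.40e-06), a 5.60-fold rise. Bgn, whose product biglycan is abundant in bone matrix, was at 897, 824 and 1287 CPM in GFP- and at 1126, 1078 and 1118 CPM in GFP+ (hi) libraries. The ranges overlapped, and the difference of 0.14 ± 0.19 (95% interval -0.29 to 0.57, adjusted p = 0.585) did not pass the test. Bgn lies on the X chromosome. Its values in the GFP+ (hi) libraries, which differed in Ddx3y and Xist, were close together, but what goes with that difference was not tested. With library totals in place of TMM factors, which moved the median of all genes to -1.06, the difference of Bgn became -0.89 (adjusted p = 0.00227), so its direction rests on the scaling. Under that scaling Dcn (1.43), Lum (1.02) and Kera (1.29) stayed higher and were still called. Aspn, which encodes a class member without the usual chain attachment, fell from 31.3, 30.1 and 29.0 CPM to 3.33, 5.05 and 4.52 CPM (log2 fold change -2.82 ± 0.22).

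In the second class the genes parted. Lum, the lumican gene next to Dcn, was at 374, 438 and 352 CPM in GFP- and at 1844, 1662 and 1442 CPM in GFP+ (hi) libraries (2.09 ± 0.17, adjusted p = 1.61e-05). Kera, best known from the cornea, was at 7.80, 9.48 and 10.2 CPM in GFP- and at 55.3, 68.0 and 15.5 CPM in GFP+ (hi) libraries (2.34 ± 0.47, adjusted p = 0.00323). Both genes were higher in every GFP+ (hi) library, but replicate 3 held much less Kera than the other two. The tendon gene Tnmd showed the same order among these libraries, with 70.9, 89.3 and 31.2 CPM, against 23.6 to 29.6 CPM in GFP- cells. This order was not particular to it. Scx (40.8, 51.0 and 39.6 CPM) had it with a smaller drop, and so did Fmod, Prelp and Epyc, which were lower in GFP+ (hi) cells. The whole tendon and ligament list (Scx, Tnmd, Mkx, Thbs4) had 3 of 4 genes higher in GFP+ (hi) cells, where it summed to 185 to 367 CPM against 130 to 210 CPM. Its part in the Kera result was not tested.

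Prelp, whose product anchors basement membranes and cartilage matrix to collagen, fell from 2158, 2484 and 1732 CPM to 14.8, 18.5 and 6.83 CPM. This was a 159-fold drop (-7.32 ± 0.41, adjusted p = 1.39e-06), with every GFP+ (hi) library far below every GFP- library. Fmod, whose product binds collagen and lysyl oxidase, was at 3690.4, 3604 and 4237 CPM in GFP- and at 615, 727 and 351 CPM in GFP+ (hi) libraries (-2.77 ± 0.27). Omd, a keratan sulphate proteoglycan first isolated from bone, fell least, from 88.3, 124 and 116 CPM to 60.8, 51.1 and 53.0 CPM (-0.99 ± 0.17, adjusted p = 0.00140). The groups lay apart for all of these genes.

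In the class of Epyc and Ogn both genes were lower in GFP+ (hi) cells. Epyc, a gene of growth plate cartilage, was at 281, 311 and 207 CPM in GFP- libraries and at 1.57, 2.66 and 0.144 CPM in GFP+ (hi) libraries. This was a 189.7-fold drop (-7.57 ± 0.61, adjusted p = 1.27e-05), and GFP+ (hi) replicate 3 held the least. Ogn, the osteoglycin or mimecan gene, fell from 48.9, 52.8 and 60.2 CPM to 9.83, 15.8 and 11.8 CPM (-2.12 ± 0.21). The chondrocyte list moved with these genes: 7 of its 7 genes were lower in GFP+ (hi) cells, and it summed there to 1709 to 4202 CPM. Col2a1, its most abundant gene, was at 85678 to 181850.0 CPM in GFP- libraries. Of 6 fibroblast and progenitor markers tested, 5 were lower as well (Ly6a -6.41, Dpt -3.95, Pi16 -3.82, Cd34 -3.70 and Col14a1 -2.44) and Pdgfra was higher (2.17), with list sums that overlapped (120 to 183 CPM against 121 to 216 CPM in GFP-). The part of either kind of cell in the SLRP levels was not tested.

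**Figure D1:**
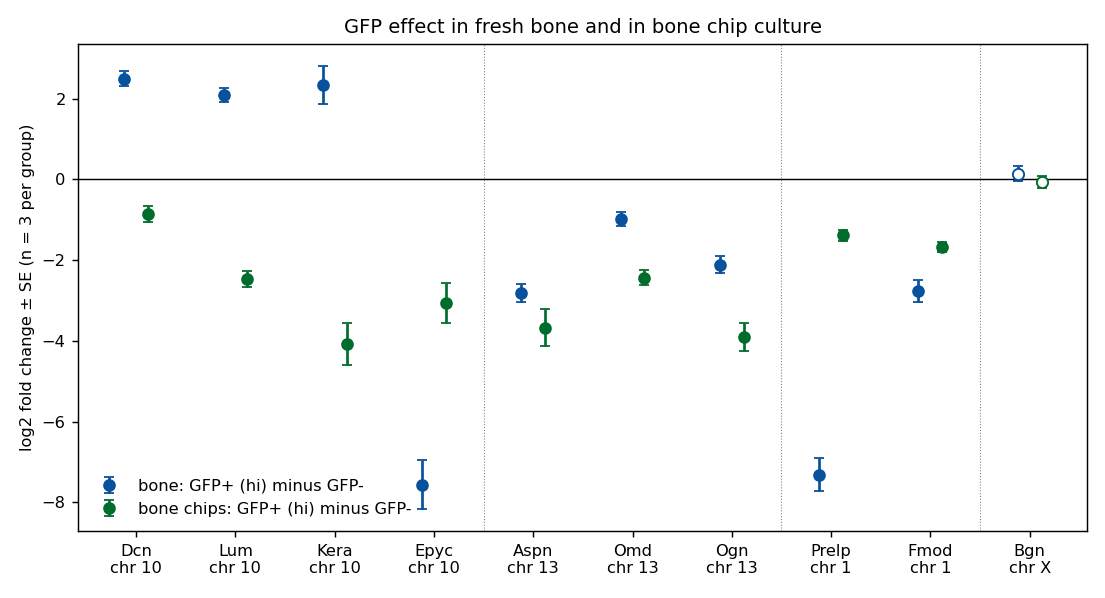
GFP effect on the 10 SLRP genes, as the log2 fold change of GFP+ (hi) over GFP- libraries with its standard error (3 libraries per group), in fresh bone (blue) and bone chip culture (green). Genes are ordered by chromosome and separated by dotted lines, open circles did not pass an adjusted p of 0.05, and the 3 genes above 0 in bone (Dcn, Lum and Kera) all lie below 0 in bone chips.

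Ratios of 2 genes within a library do not depend on the scaling between libraries. The count ratio of Kera to Epyc, neighbours on chromosome 10, was 0.0278 to 0.0492 in bone GFP- and 25.6 to 108 in bone GFP+ (hi) libraries. The ratio of Fmod to Prelp on chromosome 1 went from 1.45 to 2.45 in GFP- to 39.3 to 51.3 in GFP+ (hi) libraries, so both genes fell but by unequal amounts. Dcn counts were 0.603 to 0.918 of the Bgn counts in GFP- and 3.40 to 3.73 times them in GFP+ (hi) libraries. The ratio of Dcn to Lum changed little by comparison, and overlapped between the groups (1.51 to 2.20 against 2.08 to 2.69).

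In bone chip culture the same sort gave another picture. There 9 of 10 genes were lower in GFP+ (hi) than in GFP- cells, none was higher, and Bgn was again not called. Of 12841 genes tested, 43.5% were called (20.4% higher, 23.1% lower). All 10 log2 fold changes were below 0, so no gene was higher at an unadjusted p of 0.05 by edgeR either, and DESeq2 called 9 genes lower and 0 higher. The median log2 fold change was -2.45 over the 10 genes and -0.04 over all genes. The 9 genes also had libraries that lay apart, as 56.1% of all genes did.

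In the first class Dcn turned direction. It was at 1733, 1059 and 1731 CPM in chip GFP- and at 884, 820 and 780 CPM in chip GFP+ (hi) libraries, so the groups lay apart but by less than 2-fold (-0.86 ± 0.20, adjusted p = 0.0123). This call was lost without GFP- replicate 1 (adjusted p = 0.0531). Bgn was at 3570, 2778 and 3459 CPM in GFP- and at 3066, 2874 and 3439 CPM in GFP+ (hi) libraries (-0.06 ± 0.14, 95% interval -0.40 to 0.27, adjusted p = 0.741), but with library totals the difference was -0.62 and was called (adjusted p = 0.00494). Aspn fell from 196, 176 and 73.4 CPM to 11.4, 16.3 and 7.25 CPM (-3.67 ± 0.46).

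The second class fell throughout. Lum was at 2207, 1505 and 2380 CPM in GFP- and at 409, 359 and 333 CPM in GFP+ (hi) libraries (-2.47 ± 0.20), the opposite of its direction in bone. Kera fell from 18.8, 13.3 and 7.60 CPM to 0.757, 1.24 and 0.319 CPM (-4.08 ± 0.51), which is 27 counts in the 3 GFP+ (hi) libraries together. For Fmod the fall was from 2425 ± 269 to 762 ± 33.7 CPM, for Prelp from 401 ± 63.0 to 153 ± 9.68 CPM and for Omd from 102 ± 23.4 to 18.7 ± 1.47 CPM. Prelp fell by 1.39 ± 0.14 on the log2 scale, the least of the second class here, although it had fallen most of that class in fresh bone.

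Of the last class, Ogn was at 1145, 981 and 698 CPM in GFP- and at 64.1, 87.1 and 37.1 CPM in GFP+ (hi) libraries, a 15.0-fold drop (-3.91 ± 0.36, adjusted p = 0.000229). Epyc was scarce in both, with 165 counts in GFP- and 14 counts in GFP+ (hi) libraries in all (-3.06 ± 0.49). Beside these results, 6 of 6 tested fibroblast and progenitor markers were lower in chip GFP+ (hi) cells, where the list summed to 208 to 239 CPM against 519 to 880 CPM in GFP- cells. Marrow stromal markers, mainly Cxcl12, summed to 218 to 233 CPM against 1244 to 2219 CPM, with 3 of 4 lower and 1 higher. Chondrocyte markers overlapped in sum, which is mostly Col2a1, at 5441 to 7372 against 3945 to 7551 CPM, with Matn3 (-2.61), Matn1 (-2.43) and Sox9 (-0.88) lower and Acan (1.13) higher among 7 genes, and GFP- replicate 2 held 3144 CPM of blood markers against 275 and 365 CPM in the other GFP- libraries. Their part in the SLRP results was not tested.

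The GFP effects of both sources were then compared directly, in 1 fit of 12 libraries with an interaction term. Ddx3y and Xist also differed between these sources, and what goes with them was not tested. For 8 of 10 genes the effect differed between bone chips and bone, against 30.3% of 13530 genes tested (15.6% higher, 14.7% lower in bone chips). The effect was lower in bone chips for Kera (difference -6.41 ± 0.79), Lum (-4.56 ± 0.28), Dcn (-3.35 ± 0.29), Ogn (-1.78 ± 0.40) and Omd (-1.44 ± 0.25). It was higher, that is less negative, for Prelp (5.92 ± 0.42), Epyc (4.52 ± 1.22, adjusted p = 0.0142) and Fmod (1.10 ± 0.31, adjusted p = 0.0182). Bgn (-0.21, 95% interval -0.77 to 0.35) and Aspn (-0.84, 95% interval -1.89 to 0.21) were not called. The Epyc call was lost without chip GFP+ (hi) replicate 2 or 3 (adjusted p = 0.0954 and 0.0678), the Fmod call without bone GFP+ (hi) replicates 1 and 3 (0.0818), and Aspn was called without chip GFP- replicate 3 (0.0261).

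In the ESC comparison every SLRP gene that could be tested was higher in ESC-OB GFP+ cells. This was so for 9 of 9 genes, against 77.7% of 15415 genes called and 43.0% called higher, and the libraries of both populations lay apart for all 9, as for 81.6% of genes. Kera was too scarce to test, with 16 counts in ESC-OB GFP+ and 0 in ESC libraries, a level at least 1.99-fold higher when 3 counts are allowed for ESC as a group. ESC held only 0 to 27 counts of any SLRP gene over 3 libraries. The fitted log2 changes had a median of 10.84, or 10.60 with the genes at 0 counts set to their bound, against a median of 0.22 over all genes.

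Dcn had 0 counts in ESC and 484, 986 and 459 CPM in ESC-OB GFP+ libraries, at least 5850.0-fold higher. Bgn went from 1.29, 1.05 and 0.209 CPM to 346, 850 and 408 CPM (9.15 ± 0.52, adjusted p = 8.16e-08). Aspn rose to 55.0, 136 and 101 CPM, from at most 0.368 CPM in ESC (8.40 ± 0.52). ESC-OB replicate 2 held the most of each of these 3 genes, and no ESC library came near any ESC-OB library.

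Lum rose to 278, 531 and 274 CPM (10.93 ± 0.47). Prelp rose to 233, 392 and 295 CPM, a ratio of 4220.0 to the 2 counts of ESC with a counting interval of 1170.0 to 34900.0. Fmod reached 93.5, 104 and 53.7 CPM, a ratio of 2350.0 to a single ESC count (422 to 93000.0). Omd reached only 5.97, 20.4 and 23.3 CPM (6.48 ± 0.77), and here replicate 1 was the low one. In the last class Ogn rose to 228, 521 and 288 CPM (10.60 ± 0.50). Epyc rose from 0 counts to 8.11, 24.2 and 7.44 CPM, at least 118-fold higher. Intervals and bounds from counts cover counting error only. Fibroblast and progenitor markers moved with the family: 6 of 7 were higher and Thy1 was lower, and the list summed to 926 to 1320 CPM in ESC-OB GFP+ and 5.71 to 11.3 CPM in ESC, mainly through Ly6a (740 ± 243 CPM). Their part in the SLRP levels was not tested.

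**Figure D2:**
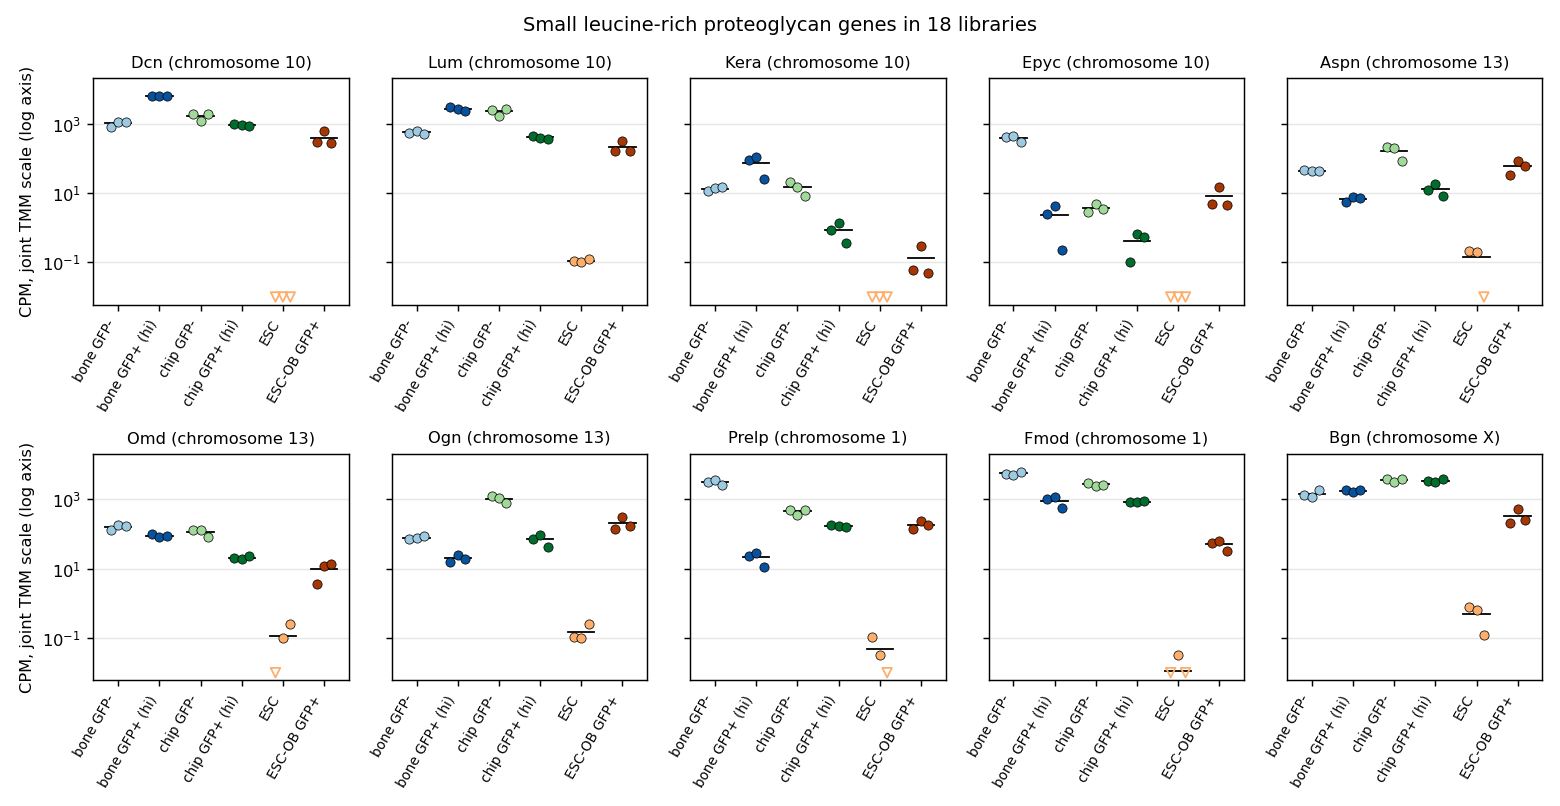
CPM of the 10 SLRP genes in 18 libraries on 1 joint TMM scale (log axis), with 3 points and their mean (bar) per population and open triangles at the foot for libraries with 0 counts. Dcn and Lum peak in bone GFP+ (hi), Fmod, Prelp and Epyc in bone GFP-, Ogn and Aspn in chip GFP-, and ESC hold almost none of any gene.

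To set the populations side by side, the 18 libraries were scaled together. Source and preparation changed together, so they cannot be told apart in these comparisons. Between bone and bone chips, Ddx3y and Xist changed with them in GFP- and in GFP+ (hi) cells, and cannot be told apart either. Among the GFP+ (hi) cells of bone, Ddx3y was high in replicate 2 only. In ESC-OB GFP+ cells Ddx3y was lower than in bone GFP+ (hi) cells, and Xist was lower than in chip GFP+ (hi) cells. Dcn stood highest in bone GFP+ (hi) at 6218 ± 46.0 CPM, followed by chip GFP-, bone GFP-, chip GFP+ (hi), ESC-OB GFP+ and ESC, with bone GFP- and chip GFP+ (hi) overlapping. Lum had the same order with a top of 2620.3 ± 325 CPM, and there bone GFP+ (hi) and chip GFP- overlapped. Kera kept this order too, with a top of 73.2 ± 42.5 CPM and overlap of chip GFP- and bone GFP-.

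Fmod (5561 ± 521 CPM), Omd (158 ± 25.9 CPM), Prelp (3071 ± 524 CPM) and Epyc (385 ± 75.5 CPM) stood highest in bone GFP-. For Epyc the next 4 populations each overlapped with their neighbour in the order. Fmod overlapped between the GFP+ (hi) cells of bone and bone chips, Omd between chip GFP- and bone GFP+ (hi), and Prelp between ESC-OB GFP+ and chip GFP+ (hi). Ogn (1042 ± 250 CPM) and Aspn (164 ± 72.7 CPM) stood highest in chip GFP-, with ESC-OB GFP+ next and bone GFP+ (hi) lowest of the populations other than ESC. For Ogn bone GFP- overlapped with chip GFP+ (hi), and for Aspn ESC-OB GFP+ overlapped with both chip GFP- and bone GFP-. Bgn stood highest in chip GFP- (3618 ± 478 CPM) and chip GFP+ (hi), which overlapped, as did both bone populations below them.

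Among GFP+ (hi) cells, bone chips differed from bone in 9 of 10 genes, against 59.2% of 14777 genes tested (29.2% higher, 29.9% lower). Prelp (3.00 ± 0.29), Ogn (1.82 ± 0.32), Bgn (0.97 ± 0.29) and Aspn (0.92 ± 0.39, adjusted p = 0.0483) were higher in bone chips. Kera (-6.42 ± 0.64), Dcn (-2.77 ± 0.29), Lum (-2.70 ± 0.25), Epyc (-2.32 ± 0.91, adjusted p = 0.0381) and Omd (-2.08 ± 0.34) were lower, and Fmod differed by -0.09 ± 0.24 (95% interval -0.60 to 0.42), which turned to 0.68 and was called with library totals (adjusted p = 0.0213). The calls of Aspn and Epyc were each lost in 5 of 6 fits that left out 1 library of these groups, every one but that without chip GFP+ (hi) replicate 3 for Aspn and bone GFP+ (hi) replicate 3 for Epyc. The Epyc call was also lost with library totals (adjusted p = 0.168), and the Bgn call without bone GFP+ (hi) replicates 1 and 3 (0.0681).

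Between the GFP- cells, 8 of 10 genes differed, against 60.8% of genes tested (31.6% higher, 29.2% lower). Ogn (3.74 ± 0.33), Lum (2.00 ± 0.24), Aspn (1.91 ± 0.36), Bgn (1.32 ± 0.29) and Dcn (0.72 ± 0.27) were higher in bone chips. Epyc (-6.69 ± 0.60), Prelp (-2.79 ± 0.28) and Fmod (-1.05 ± 0.25) were lower, and Omd (-0.49) and Kera (0.14) were not called. The chondrocyte list summed to far less in chip GFP- than in bone GFP- cells, with 7 of 7 genes lower. Marrow stromal markers were higher for 3 of 4 genes (Cxcl12 5.78 ± 0.38), with sums, each scaled within its source, of 1244 to 2219 CPM in chip and 25.0 to 35.2 CPM in bone GFP- cells. Of fibroblast and progenitor markers 3 of 7 were higher and 2 lower (519 to 880 against 121 to 216 CPM), and of blood markers 4 of 5 were higher and 1 lower. Their part in these differences was not tested. The Dcn call was lost without bone GFP- replicate 1 (adjusted p = 0.110) and without chip GFP- replicate 1 or 3 (0.0896 and 0.0943), and with upper-quartile factors (0.51, adjusted p = 0.118).

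ESC-OB GFP+ cells differed from bone GFP+ (hi) cells in all 10 genes, against 58.5% of genes tested (30.7% higher, 27.8% lower). Ogn (3.40 ± 0.33), Prelp (3.12 ± 0.29), Aspn (3.11 ± 0.39) and Epyc (1.84 ± 0.57) were higher in ESC-OB GFP+ cells. Kera (-9.07), Fmod (-4.16), Dcn (-4.01), Lum (-3.60), Omd (-3.14) and Bgn (-2.46) were lower. With library totals the difference of Bgn shrank to -0.43 (adjusted p = 0.137). The Epyc call was lost without ESC-OB replicate 2 (adjusted p = 0.0750) and without bone GFP+ (hi) replicates 1 and 3 (0.271). Against chip GFP+ (hi) cells 9 of 10 genes differed, where 62.7% of genes were called (34.1% higher, 28.6% lower). Epyc (4.16 ± 0.77), Aspn (2.19 ± 0.37) and Ogn (1.58 ± 0.31) were higher, Fmod (-4.07), Bgn (-3.42), Kera (-2.65), Dcn (-1.24), Omd (-1.06) and Lum (-0.90) were lower, and Prelp was not called (0.13 ± 0.27). With library totals in place of TMM the values of Dcn, Lum and Omd turned to 0.012, 0.35 and 0.19, none of them called, and Prelp was called higher (1.38, adjusted p = 0.000265). The Kera call was lost with library totals (adjusted p = 0.120) and without chip GFP+ (hi) replicate 2 (0.106). Marker lists differed as well. Osteoblast markers were lower in ESC-OB GFP+ cells for 6 of 6 genes, with a median of -7.45 against bone and -7.01 against chip GFP+ (hi). Epithelial markers were higher for 3 of 3 tested against both. Of fibroblast and progenitor markers 4 of 7 were higher against each, with 2 lower against bone and 0 against bone chips. Their part in these differences was not tested.

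Because genes differ in length, the make-up of the family was taken from CPM per kilobase of exon. Fmod gave a median of 42.3% of the summed SLRP level in bone GFP- libraries, Prelp 22.6% and Dcn 13.7%. In bone GFP+ (hi) libraries Dcn gave 59.7%, Lum 23.0% and Bgn 9.17%, and Prelp only 0.118%. Thus a family led by fibromodulin and prolargin stood against one led by decorin and lumican.

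In chip GFP- libraries no gene led clearly, with Lum at 23.5%, Bgn at 23.2%, Dcn at 19.8%, Fmod at 18.3% and Ogn at 9.96%. Bgn gave 47.2% in chip GFP+ (hi) libraries, ahead of Dcn at 24.5% and Fmod at 13.1%. In ESC-OB GFP+ libraries Dcn led with 35.6%, before Lum (17.9%), Bgn (15.2%), Ogn (14.4%) and Prelp (9.27%). The summed level was 4039 ± 176 CPM per kilobase in bone GFP-, 5348 ± 228 in bone GFP+ (hi), 4455 ± 666 in chip GFP-, 1979 ± 68.6 in chip GFP+ (hi), 575 ± 247 in ESC-OB GFP+ and 0.407 ± 0.0445 in ESC. As a share of all counts the order in bone turned, with 1.15 to 1.38% in GFP- and 0.473 to 0.538% in GFP+ (hi) libraries. This share leaves out the TMM factors and also the division by exon length. The order of the sums in bone therefore depends on how they are formed, and the part of each step was not tested.

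**Figure D3:**
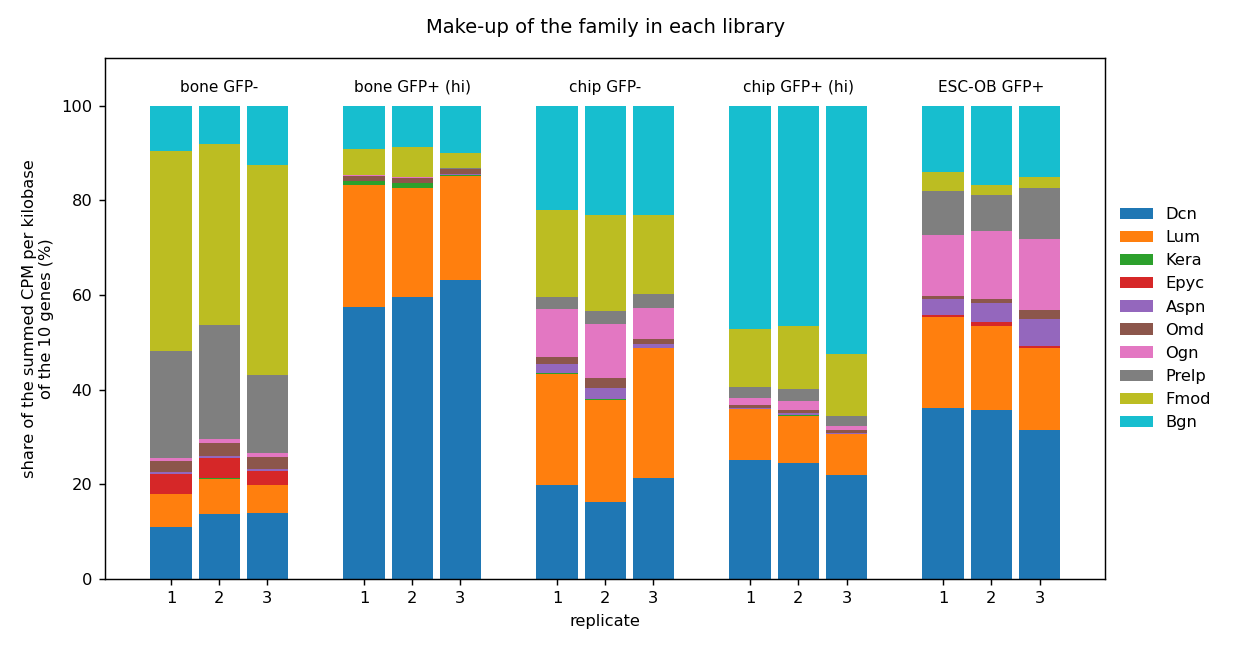
Share of each SLRP gene in the summed CPM per kilobase of the 10 genes (percent, stacked to 100), for each of the 3 libraries of 5 populations; ESC, which hold almost no SLRP counts, are left out. Fmod and Prelp fill most of the bone GFP- bars, Dcn and Lum the bone GFP+ (hi) bars, and Bgn takes the largest share in chip GFP+ (hi) libraries.

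The ratios within libraries showed the same populations apart. In bone chips Dcn stood to Lum at 0.704 to 0.785 in GFP- and at 2.16 to 2.34 in GFP+ (hi) libraries, without overlap. Dcn stood to Bgn at 0.381 to 0.501 and 0.227 to 0.288, lower in GFP+ (hi), where it had been higher in bone. The ratio of Fmod to Prelp overlapped in bone chips (5.25 to 6.83 against 4.57 to 5.62), and it was 0.182 to 0.402 in ESC-OB GFP+ libraries. On chromosome 13, Omd stood to Ogn at 1.80 to 2.35 in bone GFP- and 3.24 to 6.18 in bone GFP+ (hi) libraries, but at 0.101 to 0.116 and 0.200 to 0.547 in bone chips and 0.0262 to 0.0809 in ESC-OB GFP+ libraries. Its neighbours Ogn and Aspn kept a closer ratio, between 1.56 and 9.51 in these 5 populations.

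**Figure D4:**
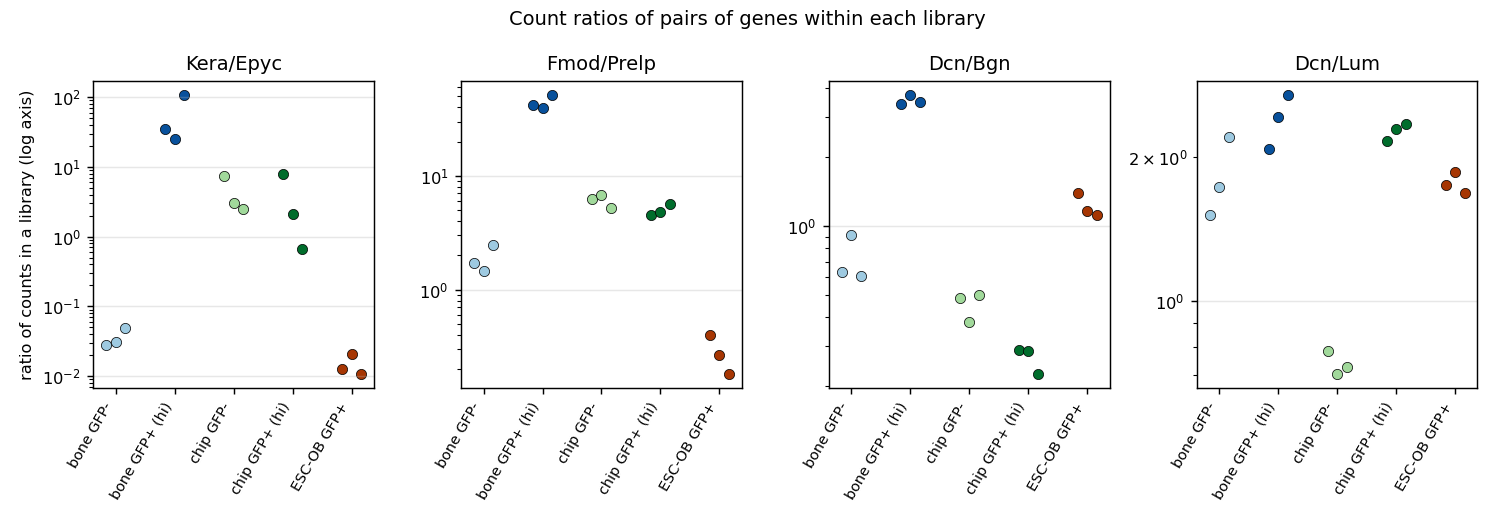
Ratio of the counts of 2 SLRP genes within each library (log axis), with 3 libraries for each of 5 populations. Kera to Epyc and Fmod to Prelp both stand higher in bone GFP+ (hi) than in bone GFP- libraries, and Dcn to Lum parts the chip GFP- libraries (0.704 to 0.785) from all others.

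Likeness of profiles was measured as the root mean square log2 difference between centred means of the 6 populations, over genes with at least 10 CPM in 1 population. Within the family the closest pairs were Dcn and Lum (0.84) and Ogn and Aspn (0.88), each within 1 cluster. Over the bone and bone chip populations alone, Fmod and Omd, which lie on different chromosomes, came close to these pairs. There the distance was 0.80 for Fmod and Omd, 0.68 for Dcn and Lum and 0.76 for Ogn and Aspn. Over all 6 populations Fmod and Omd lay 2.09 apart. Kera and Epyc, also of 1 cluster, lay 3.64 apart, and Fmod and Prelp 2.33. Among other genes, C4b was closest to Aspn (0.28), Col16a1 to Omd (0.53), Ccdc80 to Bgn (0.55) and to Fmod (1.17), and Prss23 to Ogn (0.66). Matn3, a cartilage matrix gene, was closest to Epyc (0.94), Fosb to Lum (1.01), Enpp2 to Prelp (1.14), Egr1 to Dcn (1.18) and Abcd2 to Kera (1.33). The genes next in likeness were Ism1 and Bmper for Aspn, Nr4a2 and Unc5c for Omd, Thbs1 and Fosb for Bgn, Comp and Col6a2 for Fmod, Vcam1 and Ism1 for Ogn, Kcna6 and Cdkn1c for Epyc, Thbs1 and Srpx2 for Lum, Mgp and Synpo for Prelp, Col5a2 and Fos for Dcn, and Mab21l2 and Clec14a for Kera. These are descriptions over 6 means that share the ESC value near 0.

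Genes that act with the SLRPs were counted from lists, to be read against the 41.6% of all genes called in bone, 43.5% in bone chips and 77.7% in the ESC comparison (43.0% higher). Of other leucine-rich proteoglycan and related genes, 2 of 7 tested were higher and 3 lower in bone GFP+ (hi) cells (median -1.47). Chadl (-5.91 ± 0.25), Ecm2 (-3.79 ± 0.28) and Chad (-3.67 ± 0.33), the last the chondroadherin of cartilage, fell, and Lrrc17 rose (1.41 ± 0.26). In bone chips 2 were higher and 4 lower of 7 (median -0.84). Ecm2, the neighbour of Aspn, fell in bone chips as in bone (-2.62 ± 0.19). Podn (-2.17 ± 0.20) and Tsku (-1.04 ± 0.24) fell in bone chips, whereas in bone Podn was not called and Tsku was called higher. Chad rose in bone chips (1.10 ± 0.37, adjusted p = 0.0497). In ESC-OB GFP+ cells 5 were higher and 1 lower of 8, with Podn up by 4.71 ± 0.43 and Tsku down by 1.22 ± 0.31.

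Of enzymes that start, extend and sulphate chondroitin and dermatan sulphate chains, 4 of 23 were higher and 8 lower in bone GFP+ (hi) cells (median -0.49). Chst13, a chondroitin 4-sulphotransferase, was at 38.1 ± 2.58 CPM in GFP+ (hi) and 0.0762 ± 0.132 CPM in GFP- cells. Csgalnact1, which begins chondroitin chains, fell by 6.62 ± 0.57, Chst3, a 6-sulphotransferase, by 4.37 ± 0.61 and Xylt1, a xylosyltransferase that primes the core protein, by 3.30 ± 0.22. In bone chips 11 were higher and 5 lower of 23 (median 0.14). There Chst15 (2.30 ± 0.11), Ust (2.03 ± 0.19) and Xylt1 (2.02 ± 0.23) rose and Csgalnact1 fell (-3.28 ± 0.26), so Xylt1 had opposite directions in both sources. In ESC-OB GFP+ cells 12 were higher and 1 lower of 22. The share called in either direction was below the 77.7% of all genes, but the share higher was above their 43.0%. Chst14 (4.04 ± 0.32), Chst15 (3.69 ± 0.29) and Ust (3.43 ± 0.28) were higher, and Csgalnact1 was at 12.7 ± 5.14 against 0.0739 ± 0.128 CPM.

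Of enzymes for keratan sulphate and tyrosine sulphate, 2 of 10 were higher and 3 lower in bone GFP+ (hi) cells (median -0.18). Tpst1, a tyrosine sulphotransferase (-3.40 ± 0.32), Chst1, a keratan sulphate sulphotransferase (-4.81 ± 0.68), and B3gnt2 (-1.73 ± 0.25) fell, and B4galt1 rose (1.01 ± 0.20). In bone chips 2 were higher and 6 lower of 8 (median -1.02), with Tpst1 (-3.43 ± 0.15), Chst2 (-1.40 ± 0.10) and B3gnt2 (-0.63 ± 0.16) lower and Tpst2 higher (0.73 ± 0.10). Tpst1 thus fell in both sources. In ESC-OB GFP+ cells 6 were higher and 2 lower of 10, among them Chst5 (4.31 ± 0.39), B4galt4 (3.29 ± 0.38) and Fut8 (2.06 ± 0.27) higher and B3gnt7 lower (-1.57 ± 0.40).

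Of collagens, lysyl oxidase, proteases, TGF-beta ligands and Toll-like receptors, which the SLRPs bind or which act on them, 11 of 19 were higher and 5 lower in bone GFP+ (hi) cells (median 1.42). Col1a1, whose promoter drives the GFP used for the sort, rose by 6.10 ± 0.42 and Col1a2 by 5.14 ± 0.33. Lox, which crosslinks collagen, rose by 5.55 ± 0.18 and Bmp1, which cleaves procollagen and the biglycan precursor, by 3.38 ± 0.21. In bone chips 8 were higher and 6 lower of 18 (median 0.31), with Col1a1 (2.60 ± 0.21), Col1a2 (2.46 ± 0.20) and Bmp1 (1.99 ± 0.22) higher and Mmp3 (-4.63 ± 0.55) and Col3a1 (-3.27 ± 0.18) lower. Lox was not called there (-0.42 ± 0.21), and its effect was lower in bone chips than in bone (difference -5.98 ± 0.29). In ESC-OB GFP+ cells 19 of 19 were higher (median 9.04), among them Col1a1 (9.04 ± 0.46) and Bmp1 (6.72 ± 0.27). Col3a1 stood at 2652 ± 394 and Col1a2 at 4233 ± 2162 CPM there, and Mmp13 (317 ± 247 CPM) and Mmp3 (169 ± 53.4 CPM) had 0 counts in ESC. Bgn, whose precursor Bmp1 cuts, was not called in either bone source.

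Of 6 large proteoglycans, 5 were tested in bone, with 1 higher and 2 lower in GFP+ (hi) cells. Acan, the aggrecan of cartilage, fell by 6.71 ± 0.47, Prg4, the lubricant of joints, by 5.38 ± 0.41, and Bcan rose by 5.56 ± 0.41. In bone chips 2 were higher and 2 lower of 5. Acan rose there (1.13 ± 0.29), as did Bcan (4.28 ± 0.46), and Prg4 (-3.74 ± 0.43) and Vcan (-2.90 ± 0.15) fell. In ESC-OB GFP+ cells Prg4 rose (5.07 ± 0.53) and Hspg2 (-2.25 ± 0.17) and Vcan (-2.23 ± 0.25) were among 3 of 6 that fell.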

How the data were processed

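The authors purified poly-A mRNA, sequenced both ends, aligned reads to mm9 with STAR 2.4.2a and, per the submitters' processing notes, used DESeq2 under R 3.2.2. The deposited tables, 1 for each of 3 sources, hold counts per gene symbol that the authors did not normalize; the counting tool and strand setting are not given in the sources used here. Rows with duplicated symbols (4, all of ESC) were left out of the tests.

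Each source was tested on its own with edgeR 4.0.16 (R 4.3.3; filterByExpr with a minimum count of 10, TMM, glmQLFit and glmQLFTest without covariates, Benjamini-Hochberg adjustment over all genes tested, threshold 0.05). The interaction used 12 libraries and the comparisons of sources all 18. Gene lists and members were chosen with earlier results of these data known. All 10 members were named, with up to 4 called genes of each list that had the largest changes and at least 10 CPM, Col1a1, Col1a2 and Bmp1, and the 3 genes of most like profile. Bounds allow 3 counts for a group at 0. No 2 libraries were identical.

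Whether replicate numbers pair libraries was checked on residuals. Same-numbered libraries correlated at 0.158, 0.329 and 0.396 in bone chips and at -0.0217 to 0.0305 in bone and ESC. The numbers were therefore taken to pair the bone chip libraries. The main values, also those of bone chips and the interaction, come from fits without a replicate block. With the block 9 of 10 SLRP genes were again lower in bone chips. Fits with a replicate block were among the alternatives. So were library totals, RLE factors, upper-quartile factors, DESeq2 1.42.0, other filters, 1 joint fit, and leaving out each library. Leaving out bone GFP+ (hi) replicates 1 and 3 was added after the data were seen. Figures were made with matplotlib 3.10.9.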

Additional observations from a re-analysis of the deposited data

Results flagged for a closer look

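The GFP effect differed between bone chips and fresh bone for 8 of the 10 genes, by the interaction test of edgeR over 12 libraries (adjusted p under 0.05), against 30.3% of all genes tested. The differences, as the log2 effect in bone chips minus that in bone, were -6.41 for Kera, -4.56 for Lum, -3.35 for Dcn, -1.78 for Ogn and -1.44 for Omd. They were 5.92 for Prelp, 4.52 for Epyc and 1.10 for Fmod. For Kera, Lum and Dcn the effect turned from higher in bone GFP+ (hi) cells to lower in chip GFP+ (hi) cells, and both effects were called. For the other 5 the effect was lower in GFP+ (hi) cells of both sources and differed in size.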

How the results depend on the processing

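Over all alternatives, 1116 of the comparisons of single SLRP genes kept their direction and call, 26 lost the call, 3 gained it and 11 turned direction. Library totals in place of TMM moved the median of all genes (to -1.06 in bone, -0.60 in bone chips and 2.11 for ESC-OB GFP+ against bone GFP+ (hi)). They called 8481 genes in bone (696 higher, 7785 lower, against 2455 and 2775), 8975 in bone chips (1058 and 7917, against 2614 and 2967) and 13302 for ESC-OB GFP+ against bone GFP+ (hi) (12657 and 645, against 4543 and 4106). They called 7375 higher and 1853 lower for chip against bone GFP+ (hi), 10225 and 1576 for ESC-OB GFP+ against chip GFP+ (hi) and 3884 and 1024 in the interaction. Under this scaling 2 SLRP genes remained lower in ESC-OB GFP+ against chip GFP+ (hi) cells. The values that turned direction with it were Bgn in bone (-0.89) and in the interaction (0.28), Fmod in chip against bone GFP+ (hi) (0.68, adjusted p = 0.0213), and Dcn, Lum and Omd in ESC-OB GFP+ against chip GFP+ (hi) (0.012, 0.35 and 0.19). Other values that turned, none of them called, were Bgn in bone chips without chip GFP- replicate 1 (0.021; -0.18 to 0.021 over libraries left out), Fmod in chip against bone GFP+ (hi) without bone GFP+ (hi) replicate 2 (-0.33 to 0.11), Kera in chip against bone GFP- with upper-quartile factors (-0.079) and without chip GFP- replicate 1 (-0.20 to 0.43), and Prelp in ESC-OB GFP+ against chip GFP+ (hi) without ESC-OB replicate 2 (-0.15 to 0.22). Without bone GFP+ (hi) replicates 1 and 3, 3288 genes were called in bone and 2 SLRP genes stayed higher in chip against bone GFP+ (hi). The joint fit of 18 libraries called 7466 genes in bone against 5230.0. Beyond the construction of each setting, the cause was not tested. Leaving out 1 library gave 4182 to 5222 genes called in bone, 4204 to 5932 in bone chips, 10994 to 12386 in ESC and 3273 to 4480.0 in the interaction. With the replicate block 4654, 5786, 11785 and 3883 genes were called in these comparisons, and no SLRP call changed by the pairing. Scarce genes are limited by their own counts: Epyc had only 49, 39 and 3 counts in the bone GFP+ (hi) libraries.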
